A study of Mus musculus with 56 samples.

Results

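The signal transducers and activators of transcription (STATs) were followed here in 6 genes, Stat2, Stat3, Stat4, Stat5a, Stat5b and Stat6, out of 47937 genes listed in the deposited count tables. The genes were chosen as members of the family, with earlier results of these data known, and each was found by its Ensembl identifier in both tables and passed the filter on low counts there. The study asked how loss of polyamine synthesis, or of the protein modification made from a polyamine, alters the helper T cell (TH) fates. CD4+ T cells were taken from spleen and lymph nodes of C57BL/6 mice that carry Odc flox/flox or Dohh flox/flox alleles with Cre recombinase under the CD4 promoter (CD4Cre, groups Odc-/- and Dohh-/-), and from control mice without Cre (WT). Odc encodes ornithine decarboxylase, which makes putrescine, and Dohh encodes deoxyhypusine hydroxylase, which completes the hypusine residue of eIF5A. Naive cells from mice of typically 6 to 10 weeks were activated with anti-CD3, anti-CD28 and IL-2 and were analysed after 4 days. All groups shared that activation. TH1 cells received anti-IL-4, IL-12 and IL-2, TH2 cells anti-IFN-γ, IL-4 and IL-2, TH17 cells anti-IFN-γ, anti-IL-4, IL-6, TGF-β and IL-1β, and Treg cells anti-IFN-γ, anti-IL-4, TGF-β and IL-2. CD4Cre acts from the thymus onward, in the CD8 lineage too. The Odc experiment held 16 WT and 15 Odc-/- libraries, with 4 per group except 3 for Odc-/- TH2 cells. The Dohh experiment held 12 WT and 12 Dohh-/- libraries, with 3 per group and its own WT controls. Nothing in the labels ties libraries to single animals, so p-values measure the spread between these libraries.

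STAT proteins lie inactive in the cytoplasm until a cytokine receptor is engaged. Janus kinases bound to the receptor then phosphorylate them, and STAT dimers enter the nucleus and bind DNA. In CD4+ T cells STAT2 carries type I interferon signals, STAT3 those of IL-6, IL-21 and IL-23, STAT4 those of IL-12, STAT5A and STAT5B those of IL-2 and IL-7, and STAT6 those of IL-4. The TH1, TH2 and TH17 fates are therefore tied to STAT4, STAT6 and STAT3, and Foxp3 expression in Treg cells to the STAT5 pair. The counts describe mRNA and hold nothing on phosphorylation.

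The 6 genes lie on 3 chromosomes (GRCm38, GENCODE M21 coordinates, whole gene with exons and introns). Stat4 lies at chr1:51987148-52107189 on the plus strand, Stat6 at chr10:127642986-127660957 and Stat2 at chr10:128270559-128292849, both on the plus strand. Stat5b (chr11:100780731-100850724, minus strand), Stat5a (chr11:100859351-100885169, plus strand) and Stat3 (chr11:100885098-100939540, minus strand) are neighbours. Stat5b and Stat5a are separated by 8626 bases, and the ends of Stat5a and Stat3 overlap by 72 bases on opposite strands. A second annotated gene, Gm28177, shares 26.7% of the exon length of Stat4 on the same strand and held 0 to 27 counts per library, against 8 to 613 counts for Stat4. The highest count of Gm28177 and the lowest of Stat4 fell in the same library, replicate 3 of Dohh-/- TH17. How the counting treated reads of the shared part is not given in the sources used here.

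Stat5a and Stat5b are near copies of each other, which bears on how their reads could be told apart. Their coding sequences were 90.7% identical over the aligned bases, against 50.7% to 60.7% for every other pair of the 6. The longest identical stretch ran for 324 coding bases, from base 571 to base 894 of both (counted from 1 at the A of the start codon), across exons 6 to 8 of both transcripts. Of all 50-base words of the Stat5a coding sequence 25.9% were also found in Stat5b, and of all 75-base words 16.7%. No 50-base word was shared by any other pair. Reads that lie wholly in such a stretch cannot be assigned to 1 of the pair by sequence, and how the counting treated them is not given in the sources used here. The ends of the identical stretch are shown as 60 coding bases from each gene, with the base that differs in capitals (C570A and C895T, Stat5a base first, then the Stat5b base). The 5′ end lies at chr11:100865496-100874052 in Stat5a (exons 5 to 6, plus strand) and at chr11:100798672-100801416 in Stat5b (exons 5 to 6, minus strand). The 3′ end lies at chr11:100874954-100875013 in Stat5a and at chr11:100797711-100797770 in Stat5b, in exon 8 of each.
Stat5a, 5′ end: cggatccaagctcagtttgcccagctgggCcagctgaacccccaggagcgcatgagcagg
Stat5b, 5′ end: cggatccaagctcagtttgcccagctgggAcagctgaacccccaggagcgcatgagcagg
Stat5a, 3′ end: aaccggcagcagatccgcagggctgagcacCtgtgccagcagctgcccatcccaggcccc
Stat5b, 3′ end: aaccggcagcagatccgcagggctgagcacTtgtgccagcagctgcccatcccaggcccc

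Promoters were read from RefSeq for GRCm38.p6 as 250 bases before to 50 bases after each annotated start, which gave 9 windows for the 6 genes. They were searched on both strands for the sequence that STAT dimers bind, TTCNNNGAA, for its STAT6 form with the wider spacer, TTCNNNNGAA, and for the core of the interferon-stimulated response element, GAAANNGAAA. These letters were held by 8.3%, 6.95% and 3.44% of 32851 promoter windows of the genome. None of the 9 STAT windows held TTCNNNGAA. TTCNNNNGAA was found once, in Stat2, and GAAANNGAAA in Stat2 and in the downstream start of Stat4. The Stat2 and Stat4 stretches with these matches are shown with the matches in capitals. In Stat2 the interferon match reads tttcagtttc, on the minus strand, and is followed by the wide-spacer match ttccctagaa. The Stat2 stretch lies at chr10:128270258-128270337 and the Stat4 stretch at chr1:52008113-52008182, both on the plus strand and upstream of the start.
Stat2: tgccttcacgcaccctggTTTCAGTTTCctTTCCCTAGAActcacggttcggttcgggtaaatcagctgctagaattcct
Stat4: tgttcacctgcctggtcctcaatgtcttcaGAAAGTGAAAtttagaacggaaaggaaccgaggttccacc

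Libraries of the Odc experiment held 5905374 to 9145214 counts in all, and those of the Dohh experiment 6572148 to 12576933. The polarization took in WT cells of both experiments, with the highest mean Tbx21 and Ifng in TH1, Gata3 and Il4 in TH2, Il17a in TH17 and Foxp3 in Treg. Counts are given per gene, with no separate value for the deleted exons, so the targeted mRNAs were no check of the deletion. Odc1 ranged from 424 to 680.0 CPM (read counts scaled by library size) in Odc-/- and from 357 to 860.0 CPM in WT libraries, and Dohh from 45.2 to 148 CPM in Dohh-/- and from 31.5 to 45.9 CPM in WT libraries (medians 79.1 and 37.9 CPM). Dohh was also at a median of 75.4 CPM in Odc-/- against 32.1 CPM in WT libraries of the Odc experiment. Markers of other cells moved with genotype. Of the 7 T cell identity genes, 4, 5, 2 and 3 fell in TH1, TH2, TH17 and Treg without Odc and 3, 4, 3 and 3 without Dohh, and 1 rose, in Dohh-/- TH17 cells. The shares of all genes called lower were 27.7%, 29.3%, 22.2% and 26.9% without Odc and 24.1%, 21.5%, 24.9% and 25% without Dohh. Counts such as 2 of 7 in Odc-/- TH17 cells lie near those shares, and nothing is read from them. Cd4 fell in the 4 Odc-/- subsets by 0.71 to 1.01 on the log2 scale, and Cd28 in Odc-/- TH17 and Treg cells (-1.55 and -2.23) and in the 4 Dohh-/- subsets (-1.17 to -2.79). Cd4 was at 22.1 to 79.7 CPM in Dohh-/- against 661 to 968 CPM in WT libraries, and Cd5 at 23.3 to 87.0 against 434 to 730.0 CPM, whereas Cd3d (355 to 1130.0 against 465 to 661 CPM) and Lck (435 to 897 against 586 to 926 CPM) overlapped. The summed level of 5 myeloid markers ranged from 6.23 to 4500.0 CPM in Dohh-/- and from 19.0 to 35.2 CPM in WT libraries, with Itgam listed at 0 in every library of that experiment, and that of 5 basophil and mast cell markers from 32.9 to 881 against 0.729 to 2.99 CPM. In the Odc experiment the myeloid sum ranged from 6.2 to 333 CPM in Odc-/- and from 7.55 to 44.2 CPM in WT, the basophil and mast cell sum from 10.6 to 269 against 1.14 to 13.5 CPM, and the sum of 5 B cell markers from 10.3 to 486 against 3.2 to 91.8 CPM. The mean myeloid sum was lower than WT in Odc-/- TH1 (11.3 against 14.3 CPM) and TH2 cells (7.39 against 16.7 CPM). It was higher in Odc-/- TH17 (127 against 33.0 CPM) and Treg cells (156 against 30.2 CPM). The sum of 6 CD8 T and NK cell markers ranged from 26.3 to 557 CPM in Odc-/- against 16 to 91.6 CPM in WT, and from 59.3 to 688 CPM in Dohh-/- against 23.9 to 41.3 CPM in WT. The B cell sum was 4.39 to 51.6 CPM in Dohh-/- and 3.29 to 51.9 CPM in WT libraries, and the summed T cell identity genes were at 1380.0 to 2960.0 against 2980.0 to 3830.0 CPM there and at 1830.0 to 3340.0 against 2060.0 to 3920.0 CPM in the Odc experiment. Libraries least like their groups were Odc-/- TH1 replicate 1, WT Treg replicate 4 of the Odc experiment, and Dohh-/- TH17 replicate 3 and TH1 replicates 2 and 3. The part of these markers in the STAT results was not tested, and in such bulk libraries fewer cells of a type and less RNA per cell cannot be told apart.

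In WT cells Stat3, Stat5a, Stat5b and Stat6 were well above Stat2 and Stat4 per length in all 4 subsets, and Stat5a differed most between the fates. Levels between genes are given as CPM per kilobase of exon. The length joins the exons of all annotated transcripts of a gene, such as 9527 bases from 14 transcripts for Stat3 and 5539 from 3 for Stat5b. It is not the length of 1 mRNA, so the order of genes close in level depends on the annotation. In WT cells of the Odc experiment Stat3 was at 65.0, 76.3, 87.8 and 85.0 in TH1, TH2, TH17 and Treg, Stat5b at 71.1, 78.4, 81.6 and 65.1, and Stat6 at 61.5, 66.7, 65.2 and 61.9. Stat5a stood at 51.5, 71.9, 53.1 and 30.9, Stat2 at 20.9, 16.8, 12.1 and 19.7, and Stat4 at 10.8, 7.68, 14.8 and 10.4. Stat4 was the lowest of the 6 except in TH17, where Stat2 was lower. It was the lowest in every WT group of the Dohh experiment, at 5.12, 3.42, 6.35 and 5.49 (means, n = 3). Whether WT groups differed was tested within each gene by an F test over the 4 WT subsets, which 71.1% of all genes passed in the Odc experiment and 40.1% in the Dohh experiment. In the Odc experiment 4 of the 6 STAT genes passed, which were Stat2 (edgeR adjusted p = 0.000151), Stat3 (0.0217), Stat4 (0.0117) and Stat5a (1.07e-08). In the Dohh experiment 4 passed too, Stat2 (edgeR adjusted p = 0.00155), Stat3 (0.000479), Stat5a (8.87e-06) and Stat5b (0.00181). Stat3 of the Odc experiment did not pass in 3 of 16 fits that left out 1 WT library (adjusted p from 0.00457 to 0.0788). These counts stand beside the shares of all genes, and nothing is read from them about the family.

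**Figure D1:**
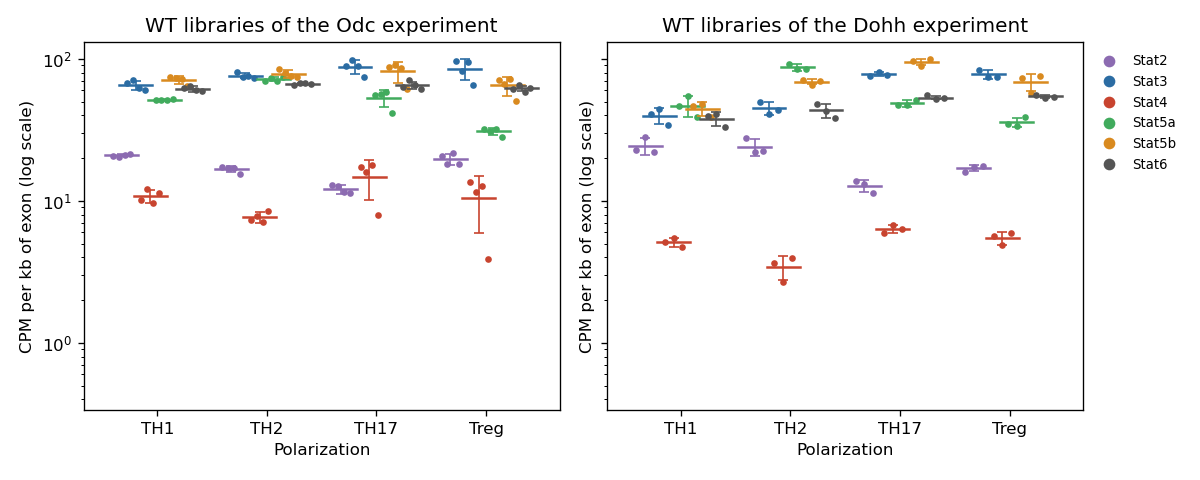
STAT mRNA in WT libraries. Points are libraries, horizontal and vertical bars are mean and SD, the x axis is the polarization and the y axis CPM per kilobase of exon on a log scale, for the Odc experiment (left, n = 4 per group) and the Dohh experiment (right, n = 3). By its mean Stat4 is the lowest of the 6 genes in each group except TH17 of the Odc experiment, where Stat2 is, and Stat5a is highest in TH2 and lowest in Treg.

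Pairs of WT subsets were compared for each gene to order the levels. Of all genes, 21.5% differed between TH1 and TH2, 42% between TH1 and TH17, 48.9% between TH1 and Treg, 47.8% between TH2 and TH17, 51.3% between TH2 and Treg and 34.5% between TH17 and Treg in the Odc experiment. The same shares in the Dohh experiment were 10.6%, 22.4%, 26.3%, 24.9%, 28.6% and 11.1%. Stat5a followed the order TH2, TH17, TH1, Treg in the Odc experiment and TH2, TH17, TH1, Treg in the Dohh experiment. Its 4 WT libraries of the Odc experiment held 497, 526, 498 and 530 CPM in TH2 and 229.7, 221, 229 and 201 CPM in Treg. The groups lay far apart, by 1.22 ± 0.12 on the log2 scale (TH2 minus Treg, SE, edgeR adjusted p = 1.4e-09), and by 1.29 ± 0.17 in the Dohh experiment (adjusted p = 3.81e-06). TH17 and TH1 were neighbours whose difference did not pass in either experiment (adjusted p = 0.786 and 0.871). In the Dohh experiment neither TH1 (0.0925) nor TH17 (0.101) passed against Treg, so that only the differences from TH2 passed there.

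The mean level of the IL-12 transducer Stat4 was highest in TH17 in both experiments, without a difference from TH1 that passed. Its order of mean level was TH17, TH1, Treg, TH2 in the Odc experiment and TH17, Treg, TH1, TH2 in the Dohh experiment. In the Odc experiment only TH17 and TH2 passed, with TH2 lower by 0.95 ± 0.25 on the log2 scale (edgeR adjusted p = 0.00252), and TH1 against TH17 did not (log2 difference -0.45, adjusted p = 0.14). No pair passed for Stat4 in the Dohh experiment, where 98 to 289 counts stood behind each WT value. Stat3 was lowest in TH1. TH1 was below TH17 by 0.43 ± 0.13 in the Odc experiment (adjusted p = 0.0102) and by 0.97 ± 0.21 in the Dohh experiment (0.00168), and the differences between TH1 and TH2 (0.241 and 0.68) and between TH17 and Treg (0.824 and 1.0) did not pass. The mean level of Stat2 was lowest in TH17, below TH1 by 0.79 ± 0.15 in the Odc experiment (adjusted p = 9.07e-05) and by 0.94 ± 0.20 in the Dohh experiment (0.00163). TH1 against TH2 did not pass in either experiment (0.122 and 0.978), nor did TH17 against Treg in the Dohh experiment (0.246). The IL-4 transducer Stat6 was the most even of the 6 in the Odc experiment, where the 4 WT means ran from 270.7 CPM in TH1 to 293.6 CPM in TH2 and no pair passed. In the Dohh experiment Stat6 was 167 ± 17.6 CPM (SD, n = 3) in TH1 and 239 ± 4.92 CPM in Treg, the pair that passed (edgeR adjusted p = 0.0479). Stat5b passed over the 4 subsets in the Dohh experiment and not in the Odc experiment (adjusted p = 0.11), where it passed once the replicate number that WT libraries share across subsets was a block (edgeR adjusted p = 0.0189).

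Most of the STAT mRNAs were lower in Odc-/- and in Dohh-/- than in WT libraries in most subsets. The part of the cell markers described above in these differences was not tested. Of 24 comparisons of Odc-/- with WT (6 genes in 4 subsets) 19 were lower and 1 was higher at an adjusted p below 0.05, and 4 did not pass. Of the 24 comparisons of Dohh-/- with WT 18 were lower, none was higher and 6 did not pass. None of these calls turned direction under total-count or relative-log-expression scaling, and total-count scaling left 14 calls without Dohh. In the order TH1, TH2, TH17 and Treg, 4, 5, 5 and 5 of the 6 genes fell in Odc-/- cells, where 27.7%, 29.3%, 22.2% and 26.9% of all genes were called lower and 29.1%, 29.9%, 25.6% and 32.9% higher. In Dohh-/- cells 3, 5, 5 and 5 fell, where 24.1%, 21.5%, 24.9% and 25% of all genes were called lower and 25.9%, 23.8%, 27% and 28.4% higher. The median log2 change of the 6 genes was -0.40, -0.54, -0.61 and -0.71 in Odc-/- and -0.87, -0.65, -0.89 and -1.29 in Dohh-/- cells, and that of all genes lay within 0.0731 of 0 in all 8 comparisons. Over 2-fold losses, the size the study's own rule asks for, numbered 4 in Odc-/- cells (1 in each subset, where 11.3%, 13.6%, 7.21% and 10.1% of all genes were that far lower) and 11 in Dohh-/- cells (3, 2, 2 and 4, against 14.2%, 11.6%, 14.1% and 15.2%). Summed over the 6 genes per kilobase, WT libraries of the Odc experiment held 228 to 346 and Odc-/- libraries 154 to 224, and WT libraries of the Dohh experiment held 173 to 299 and Dohh-/- libraries 83.6 to 185.

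**Figure D2:**
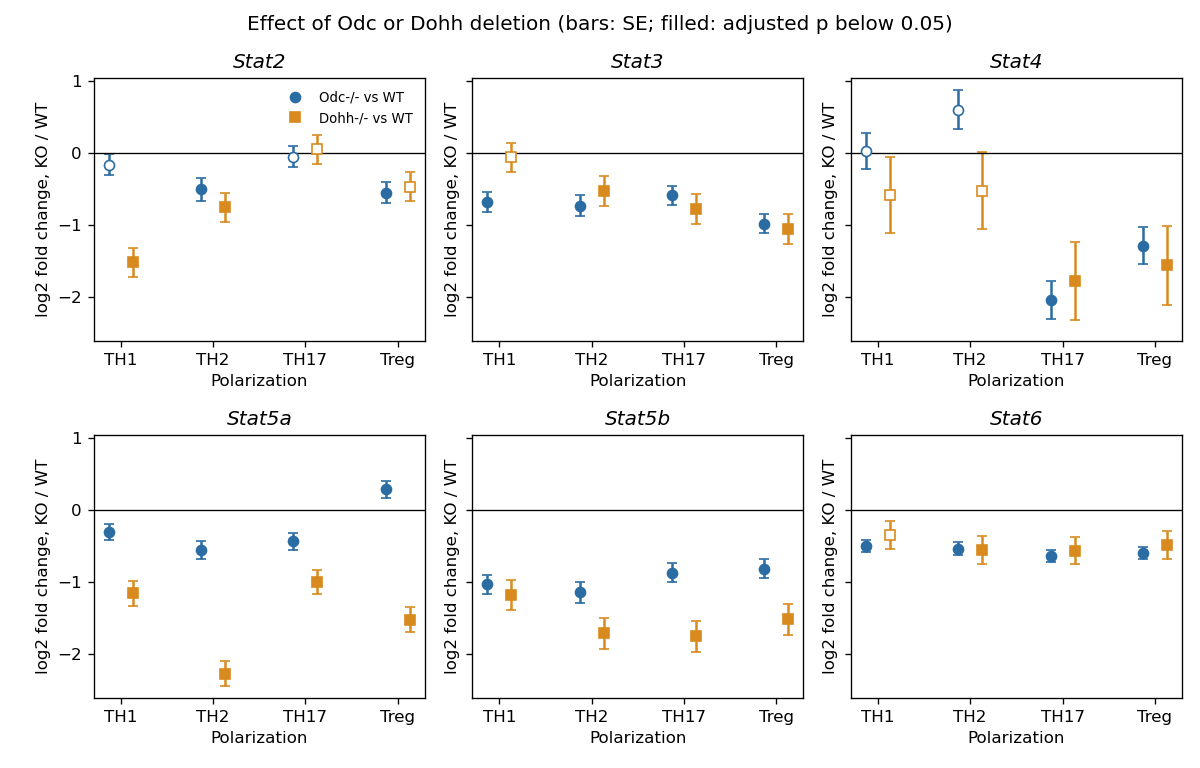
Effect of Odc or Dohh deletion on each STAT gene. The y axis is the log2 fold change of deleted over WT libraries with its SE (edgeR), the x axis the polarization, circles the Odc and squares the Dohh experiment, and filled symbols passed an adjusted p below 0.05. Most symbols lie below 0, with Stat5a in Odc-/- Treg cells the 1 filled symbol above it, a call lost in 6 of 8 alternative settings.

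Stat2, which carries type I interferon signals with IRF9, fell in Dohh-/- TH1 cells and in parts of the other groups. Its 3 Dohh-/- TH1 libraries held 54.6, 28.6 and 68.0 CPM, and the WT libraries 135, 167 and 132 CPM. The groups lay apart, at a log2 change of -1.52 ± 0.21 (SE, edgeR adjusted p = 6.18e-06). In TH2 cells the Dohh-/- libraries held 78.7, 92.6 and 83.0 CPM against 165, 131 and 132 CPM, a fall of 0.75 ± 0.20 (adjusted p = 0.00463). In Treg cells no Dohh-/- library reached the WT range of 95.2 to 104 CPM, and the change of -0.47 ± 0.20 did not pass (adjusted p = 0.0559). It passed in 5 of 8 alternative settings (edgeR or DESeq2 adjusted p from 0.00415 to 0.0749 over the 8) and in 1 of 6 fits that left out 1 library. In TH17 cells, where Stat2 was lowest to start with, the groups overlapped at 72.1 to 84.6 and 67.5 to 81.7 CPM. In the Odc experiment Stat2 fell in TH2 (log2 change -0.51 ± 0.16, adjusted p = 0.00814) and Treg cells (-0.55 ± 0.15, 0.00213). In those Treg cells replicate 1 of Odc-/- held 116 CPM and the other libraries 59.5 to 76.4 CPM, so that the groups overlapped. TH1 (-0.16, adjusted p = 0.347) and TH17 (-0.05, 0.797) did not pass. The Dohh effect on Stat2 differed between subsets (interaction adjusted p = 0.00321), which 17.9% of all genes did.

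Stat3, the transducer of IL-6 and IL-21, fell in all 4 subsets without Odc and in 3 of 4 without Dohh. The interaction of deletion and subset did not pass (edgeR adjusted p = 0.317 and 0.0806). In Treg cells Odc-/- libraries held 426, 417, 360.5 and 438 CPM, against 914, 789, 912 and 623 CPM in WT. The groups did not overlap and the log2 change was -0.98 ± 0.13 (edgeR adjusted p = 8.7e-07). Odc-/- TH17 libraries held 611, 598, 451 and 572 CPM and WT libraries 843, 943, 846 and 715 CPM, a fall of 0.58 ± 0.13 (adjusted p = 0.000904). In TH1 (-0.68 ± 0.13, adjusted p = 0.000131) and TH2 cells (-0.73 ± 0.15, 0.000129) the groups did not overlap either. Dohh-/- Treg libraries held 391, 372 and 309.9 CPM, against 802, 713 and 713 CPM in WT (-1.05 ± 0.21, adjusted p = 0.000275). Dohh-/- TH17 libraries held 580.3, 398 and 314 CPM, against 719, 766 and 738 CPM (-0.78 ± 0.21, adjusted p = 0.00363). The fall in Dohh-/- TH2 cells was 0.52 ± 0.21 (adjusted p = 0.0454) and was lost in 5 of 6 fits that left out 1 library (adjusted p from 0.0387 to 0.143), with total-count scaling (0.0807) and with no filter on low counts (0.0624). Dohh-/- TH1 cells did not pass (adjusted p = 0.824), with libraries from 264 to 492 CPM around the WT range of 328 to 423 CPM.

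**Figure D3:**
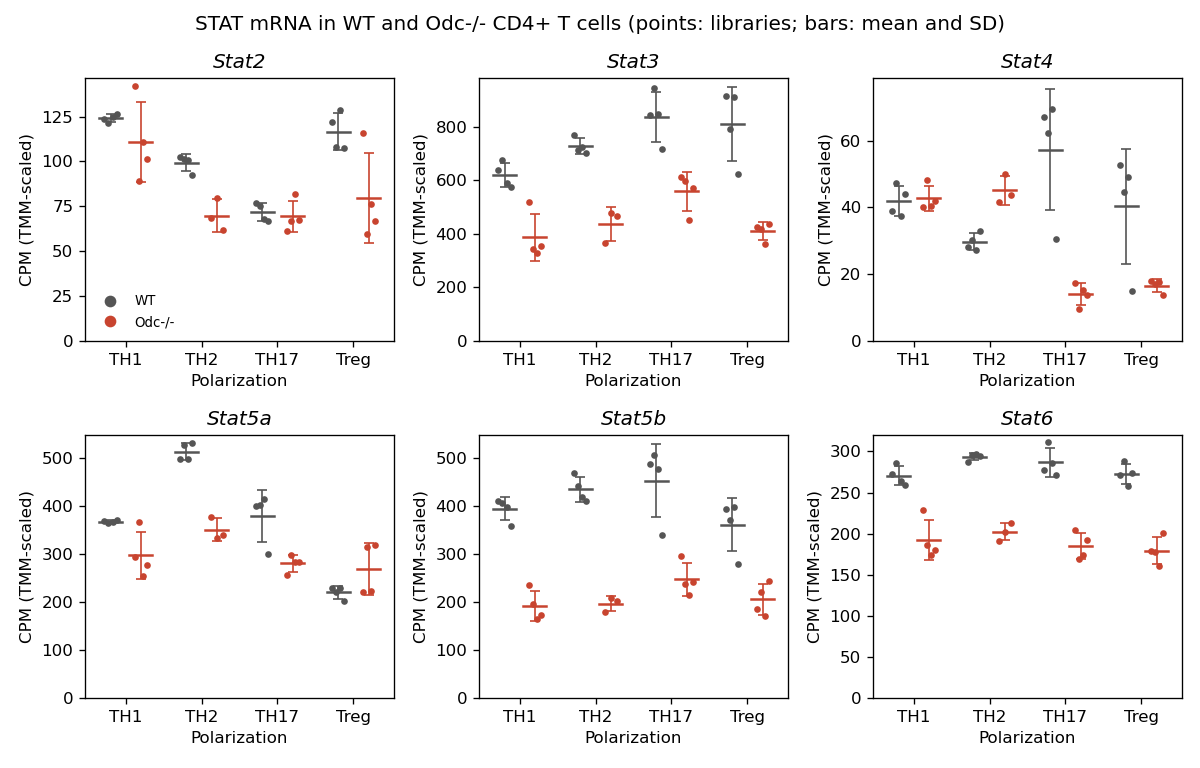
STAT mRNA in the Odc experiment. Each point is a library, bars are mean and SD, the y axis is CPM after TMM scaling and the x axis the polarization, with WT in grey and Odc-/- in red (n = 4 per group, 3 for Odc-/- TH2). Stat4 is near its WT level in TH1 and far below it in TH17, where Odc-/- libraries sit between 9.47 and 17.3 CPM.

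Stat4, the transducer of IL-12, changed in some subsets and not in others. In TH17 cells Odc-/- libraries held 17.3, 9.47, 15.3 and 13.9 CPM, against 67.0, 62.2, 69.3 and 30.6 CPM in WT. All WT libraries were above all Odc-/- libraries, at a log2 change of -2.04 ± 0.26 (edgeR adjusted p = 1.96e-06), the largest fall of the 24 STAT comparisons with Odc-/-. In Treg cells Odc-/- libraries held 18.0, 17.0, 17.6 and 13.7 CPM, against 52.8, 44.5, 49.1 and 15.03 CPM in WT (-1.29 ± 0.26, adjusted p = 0.000126). WT replicate 4 lay within the Odc-/- range there, and without it the change was -1.56. In TH1 cells, the fate that depends on IL-12, the groups overlapped at 40.2 to 48.3 CPM in Odc-/- and 37.3 to 47.2 CPM in WT, and the log2 change of 0.03 ± 0.25 did not pass (adjusted p = 0.933, 95% interval -0.45 to 0.51). In TH2 cells every Odc-/- library (41.6, 49.95 and 43.8 CPM) was above every WT library (27.4 to 33.1 CPM), and the change of 0.60 ± 0.27 did not pass in this fit (adjusted p = 0.0526). It passed with total-count scaling (0.65, adjusted p = 0.0401), with the replicate number as a block (0.64, 0.0349), with only both TH2 groups in the fit (0.59, 0.000609) and without the 2 libraries farthest from their groups (0.60, 0.00668). The Odc effect on Stat4 differed between subsets (interaction adjusted p = 1.1e-05), which 34.8% of all genes did.

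In Dohh-/- cells Stat4 fell in TH17 and Treg as well, at lower counts. TH17 libraries held 10.96, 8.76 and 1.21 CPM, against 22.8, 26.1 and 24.7 CPM in WT (-1.78 ± 0.54, edgeR adjusted p = 0.00991). Dohh-/- replicate 3, the lowest, rested on 8 counts, where the overlapping Gm28177 held 27 counts, and the part of the overlap was not tested. Treg libraries held 11.6, 5.76 and 4.33 CPM, against 21.8, 18.8 and 23.2 CPM (-1.56 ± 0.54, adjusted p = 0.0202, lost in 2 of 6 fits that left out 1 library and, at 0.0636, with no filter on low counts). In TH1 cells the libraries were far apart, at 10.5, 3.16 and 25.7 CPM against 18.4 to 21.2 CPM in WT, and the change of -0.58 ± 0.53 did not pass (adjusted p = 0.373). Without Dohh-/- TH1 replicate 3 the change was -1.49 (adjusted p = 0.025), and without replicate 2 it was -0.14. TH2 libraries of Dohh-/- (8.29 to 9.75 CPM) lay below those of WT (10.4 to 15.2 CPM) and did not pass (adjusted p = 0.442). A difference of the Dohh effect on Stat4 between subsets did not pass either (interaction edgeR adjusted p = 0.413).

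**Figure D4:**
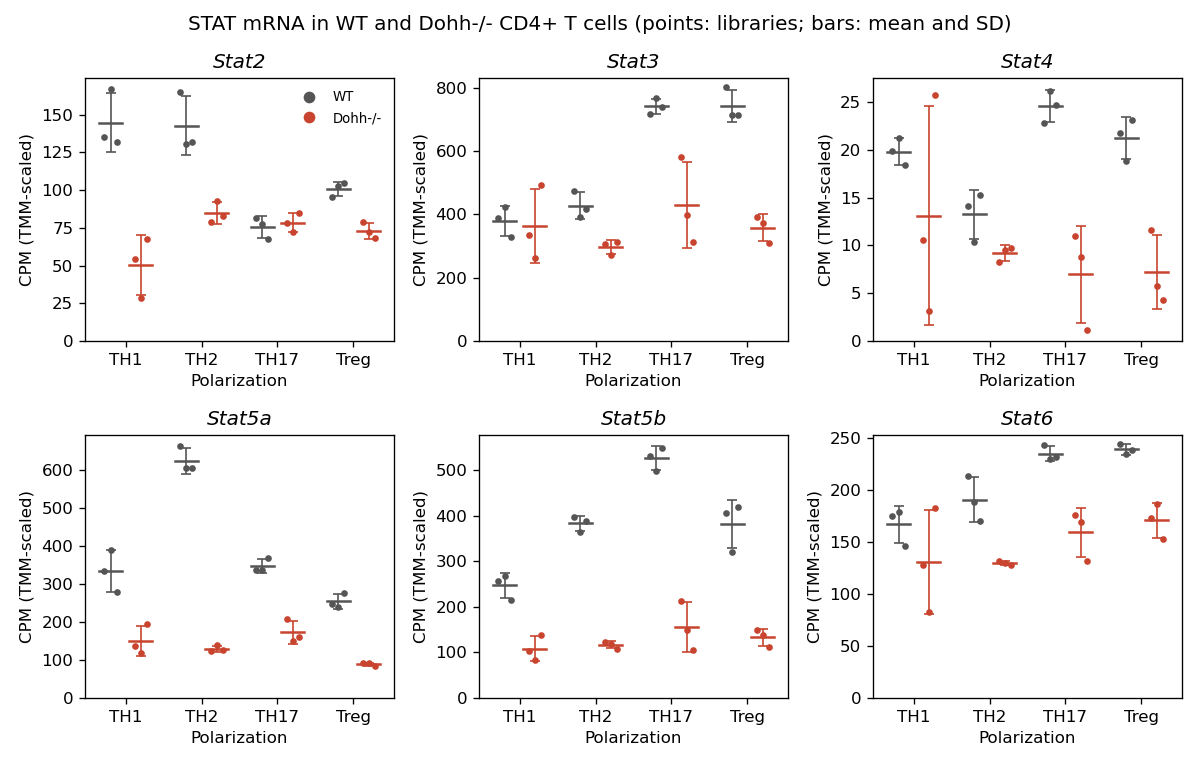
STAT mRNA in the Dohh experiment. Each point is a library, bars are mean and SD, the y axis is CPM after TMM scaling and the x axis the polarization, with WT in grey and Dohh-/- in red (n = 3 per group). Stat5a and Stat5b of Dohh-/- libraries sit below all WT libraries in each of the 4 subsets, as do 27% to 32.3% of all genes in a subset, and Dohh-/- TH1 libraries are spread widely for Stat3, Stat4 and Stat6.

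Stat5b, 1 of the pair that carries the IL-2 and IL-7 signals, was the 1 member that fell in all 8 comparisons, and WT and deleted libraries overlapped in none of them. Of all genes, 21.5%, 30.5%, 19.6% and 20.6% had every Odc-/- library below every WT library in TH1, TH2, TH17 and Treg, and 27%, 30.5%, 32.1% and 32.3% every Dohh-/- library. Odc-/- libraries held 235, 196, 166 and 173 CPM in TH1 against 411, 407, 398 and 359 CPM in WT (-1.03 ± 0.14, edgeR adjusted p = 1.71e-06), and 179, 208 and 203 CPM in TH2 against 468, 441, 419 and 409.8 CPM (-1.14 ± 0.15, adjusted p = 8.58e-07). Stat5b was at 48.9% of its WT level in Odc-/- TH1 and at 45.3% in Odc-/- TH2 cells. In TH17 (-0.87 ± 0.13, adjusted p = 1.64e-05) and Treg cells (-0.81 ± 0.13, 1.14e-05) the loss was of similar size, and the interaction did not pass (0.441). Dohh-/- TH17 libraries held 213, 149 and 105 CPM against 531, 497 and 549 CPM in WT (-1.75 ± 0.21, adjusted p = 1.27e-06). TH1 (-1.19 ± 0.21), TH2 (-1.71 ± 0.21) and Treg cells (-1.52 ± 0.21) fell too, with adjusted p from 2.15e-06 to 9.27e-05 for those 3.

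Stat5a, the other gene of the pair, parted the deletions. Without Dohh it fell in all 4 subsets. Dohh-/- TH2 libraries held 123, 138 and 126 CPM, against 662, 605 and 603.5 CPM in WT. The groups lay apart by -2.27 ± 0.17 on the log2 scale (edgeR adjusted p = 4.31e-09), and Stat5a kept 20.7% of its WT level, the largest fall of all 48 STAT comparisons. Dohh-/- Treg libraries held 91.6, 90.9 and 84.1 CPM, against 247, 240.0 and 277.5 CPM (-1.52 ± 0.17, adjusted p = 3.45e-07). The TH1 (-1.16 ± 0.17, adjusted p = 1.34e-05) and TH17 changes (-0.998 ± 0.168, 5.86e-05) were smaller, and the Dohh effect differed between subsets (interaction adjusted p = 0.00207). Without Odc it fell by 0.55 ± 0.13 in TH2 (adjusted p = 0.000597), by 0.44 ± 0.12 in TH17 (0.00355) and by 0.31 ± 0.12 in TH1 cells (0.0269), where the groups overlapped and total-count scaling ended the call (adjusted p = 0.0506). In Odc-/- Treg cells it was higher instead, with 221, 314, 224 and 318 CPM against 229.7, 221, 229 and 201 CPM in WT (0.29 ± 0.12, adjusted p = 0.0346). Replicates 1 and 3 of Odc-/- lay within the WT range. The rise was lost in 6 of 8 alternative settings (edgeR or DESeq2 adjusted p from 0.026 to 0.174 over the 8). Among the 6 were relative-log-expression scaling (0.22, adjusted p = 0.105), total-count scaling (0.23, 0.108) and DESeq2 (0.22, 0.1). It was also lost in 4 of 8 fits that left out 1 library (0.20 to 0.37, adjusted p from 0.00963 to 0.159). The Odc effect on Stat5a differed between subsets (interaction adjusted p = 0.00129).

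The ratio of the pair was described in each library. Its absolute value depends on the joined exon lengths, 7133 bases for Stat5a and 5539 for Stat5b. The ratio of Stat5a to Stat5b, each per kilobase of exon, was 0.726 ± 0.049 in WT TH1 (SD, n = 4), 0.919 ± 0.0732 in TH2, 0.653 ± 0.0312 in TH17 and 0.48 ± 0.0524 in Treg cells. In Odc-/- cells it was 1.21 ± 0.197, 1.39 ± 0.215 (n = 3), 0.895 ± 0.155 and 1.01 ± 0.0735. The groups did not overlap in TH1, TH2 and Treg cells, and did in TH17 cells. In Dohh-/- cells the mean ratio was 0.911 against 0.511 in WT in TH17 cells and 0.862 against 1.26 in TH2 cells, without overlap, and stood at 1.07 against 1.05 in TH1 and 0.522 against 0.523 in Treg cells. Two-sided exact permutation tests of the log ratio gave p = 0.0286 in TH1 and Treg and 0.0857 in TH17 (n = 4 against 4, smallest possible 0.0286), 0.0571 in TH2 of the Odc experiment (the smallest its n allows), and 0.8, 0.1, 0.1 and 1.0 for TH1, TH2, TH17 and Treg of the Dohh experiment (n = 3 against 3, smallest possible 0.1). Adjusted over the 8 tests these exact p-values were 0.114 to 1.0, and with these group sizes no outcome could have passed after adjustment, so the tests say nothing for or against a difference and the ratios stand as a description. The ratio was chosen after the values of both genes had been seen, and reads from the identical stretch described above may have been dropped or split for both genes.

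**Figure D5:**
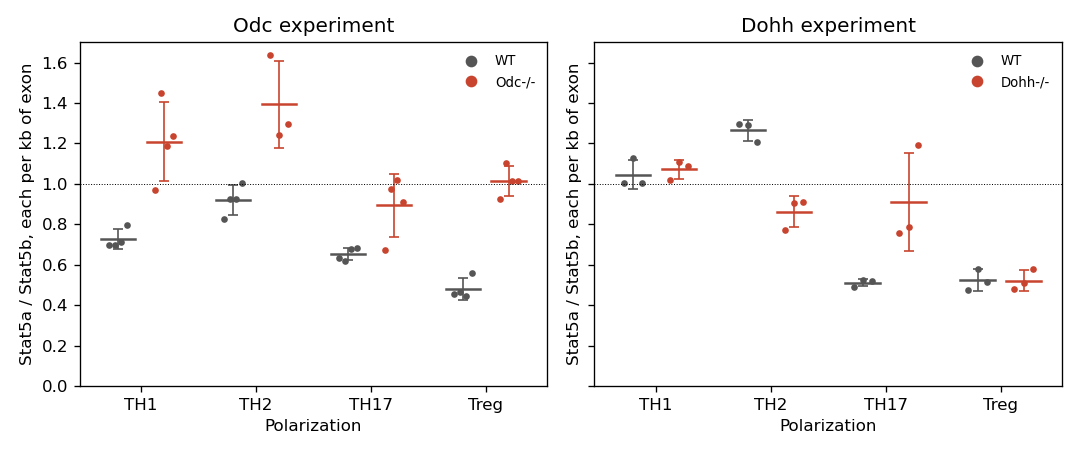
Ratio of Stat5a to Stat5b in each library. The y axis is the ratio of CPM per kilobase of exon, with 1 dotted, the x axis the polarization, points libraries, bars mean and SD, WT grey and deleted libraries red, for the Odc experiment (left) and the Dohh experiment (right). Odc-/- Treg libraries sit between 0.924 and 1.1, above the WT libraries at 0.446 to 0.558.

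Stat6, the IL-4 transducer, fell in 7 of 8 comparisons, to between 64.5% and 71.4% of its WT level. In TH2 cells, the fate that IL-4 drives, Odc-/- libraries held 191.5, 202 and 213 CPM against 287, 295, 297 and 295 CPM in WT (-0.54 ± 0.09, edgeR adjusted p = 2.06e-05). TH1 (-0.49 ± 0.08), TH17 (-0.63 ± 0.08) and Treg cells (-0.60 ± 0.08) fell too, with adjusted p from 1.01e-06 to 2.76e-05 for those 3, no overlap in any subset, and no difference of the effect between subsets that passed (interaction adjusted p = 0.727). Dohh-/- TH2 libraries held 131.5, 130.4 and 128.3 CPM against 214, 189 and 170.2 CPM in WT (-0.55 ± 0.19, adjusted p = 0.0224). TH17 (-0.56 ± 0.19, adjusted p = 0.0177) and Treg cells (-0.49 ± 0.19, 0.0361) fell as well. These 3 calls were lost with total-count scaling (adjusted p = 0.0607, 0.0585 and 0.0547) and in 3, 2 and 3 of 6 fits that left out 1 library. Dohh-/- TH1 libraries held 128, 82.8 and 183 CPM against 147 to 179 CPM in WT and did not pass (-0.35, adjusted p = 0.135). Without replicate 3, the highest, the change was -0.66 (adjusted p = 0.00263). Leaving out replicate 2, the lowest, moves the Dohh-/- mean the other way, toward WT.

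The Dohh effect was compared with the Odc effect within each subset, in 1 fit of both experiments in which each deletion was set against its own WT libraries. Experiment and deleted gene cannot be told apart beyond that. Of 24 such differences 8 passed, where 21.9%, 18.4%, 24.5% and 29.9% of all genes passed in TH1, TH2, TH17 and Treg. Stat5a gave 4 of the 8. Its Dohh effect was lower than its Odc effect by 0.83 ± 0.19 on the log2 scale in TH1 (edgeR adjusted p = 0.00171), by 1.73 ± 0.20 in TH2 (5.74e-08), by 0.50 ± 0.19 in TH17 (0.0489) and by 1.77 ± 0.19 in Treg cells (2.43e-09). Stat5b was lower under Dohh deletion by 0.83 ± 0.24 in TH17 (adjusted p = 0.00897) and by 0.66 ± 0.24 in Treg cells (0.0309), and Stat2 by 1.33 ± 0.25 in TH1 cells (0.000111). Stat3 was the reverse, with less loss under Dohh deletion in TH1 cells (0.64 ± 0.24, adjusted p = 0.0479). The Stat3 and the Stat5a TH17 differences were each lost in 9 of 14 fits that left out 1 library, and that of Stat5b in Treg cells in 7 of 14. Of 5 alternative settings, 3 lost the Stat5a TH17 difference (edgeR or DESeq2 adjusted p from 0.0423 to 0.0896 over the 5). The Stat3 difference and that of Stat5b in Treg cells were each lost in 1 of 5. For Stat6 none of the 4 differences passed (-0.02 to 0.17, SE 0.185 to 0.191, adjusted p from 0.553 to 0.954), and for Stat4 none did at SE of 0.534 to 0.561.

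Kinases and receptors upstream of the STATs were counted by list, to be read beside the 22.2% to 29.3% of all genes that were lower and 25.6% to 32.9% that were higher in the Odc-/- subsets, and the 21.5% to 25% lower and 23.8% to 28.4% higher in the Dohh-/- subsets. Of the 4 Janus kinases, 2, 4, 3 and 3 fell in Odc-/- TH1, TH2, TH17 and Treg cells and 2 in each Dohh-/- subset, and 1 rose, Jak2 in Odc-/- TH1 cells (0.54 ± 0.17, edgeR adjusted p = 0.00913). Jak3, the kinase of the common gamma chain, fell in all 8 comparisons, by 0.83 to 1.30 on the log2 scale without Odc and by 1.23 to 2.08 without Dohh. Jak2 fell in the other 3 Odc-/- subsets (-0.56 to -1.39) and in all 4 Dohh-/- subsets (-1.59 to -2.37). Of 9 receptor subunits of the common gamma chain family, which held the chain itself (Il2rg) and Il13ra1, a partner of Il4ra in a receptor without that chain, 5, 8, 2 and 3 fell and 2, 1, 0 and 2 rose in Odc-/- cells. Il4ra, which binds STAT6, fell in all 8 comparisons (-0.45 to -1.22 without Odc, -0.84 to -1.93 without Dohh). Il7r fell in the 4 Odc-/- subsets (-0.84 to -1.60) and did not pass without Dohh (-0.59 to 0.40). Il2rg was listed at 0 in all 24 libraries of the Dohh experiment and held 1909 to 3601 counts in those of the Odc experiment, so it was tested in the latter only. The annotation used for each table is not given in the sources used here, and a 0 in every library is not read as a measured level. Of the 8 others, 5, 2, 2 and 1 fell and 0, 0, 3 and 2 rose in Dohh-/- cells.

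The IL-6 receptor chain Il6ra fell in all 8 comparisons, by 1.03 to 2.27 on the log2 scale without Odc and by 2.82 to 6.20 without Dohh. Il6st, the chain shared by IL-6 family receptors, fell in the 4 Dohh-/- subsets (-0.85 to -1.90) and, of the Odc-/- subsets, in Treg cells (-0.91 ± 0.20, adjusted p = 0.000282). Il10ra fell in Odc-/- TH1, TH2 and TH17 cells (-1.28, -1.84 and -0.88) and in Dohh-/- TH1 and TH2 cells (-2.18 and -0.98). Of 7 genes of this list, 5 were tested in the Odc and 6 in the Dohh experiment, and 3, 4, 2 and 2 fell and 0, 0, 1 and 1 rose without Odc, and 4, 3, 2 and 2 fell and 1, 0, 1 and 0 rose without Dohh. This and the next counts stand beside 22.2% to 29.3% of all genes lower and 25.6% to 32.9% higher without Odc. Without Dohh 21.5% to 25% were lower and 23.8% to 28.4% higher. Of the 4 interferon receptor subunits, 3, 4, 2 and 4 fell in Odc-/- cells and 3, 3, 2 and 3 in Dohh-/- cells. Ifnar1, through which Stat2 is reached, fell in the 4 Odc-/- subsets (-0.51 to -1.23) and in Dohh-/- TH1, TH2 and Treg cells (-0.54, -0.66 and -0.84). Its partner Ifnar2 fell in the 4 Dohh-/- subsets (-0.63 to -1.21) and in Odc-/- TH2 and Treg cells (-0.49 and -0.47). Ifngr1 fell in the 4 Odc-/- subsets (-0.67 to -2.15) and rose in Dohh-/- TH1 (0.75) and TH2 cells (1.91). Ifngr2 fell in the 4 Dohh-/- subsets (-1.51 to -2.5) and in Odc-/- TH1, TH2 and Treg cells (-0.66, -0.77 and -0.74). Of the 3 IL-12 and IL-23 receptor subunits, 2, 1, 2 and 0 fell without Odc, Il12rb2 among them in TH1, TH2 and TH17 cells (-0.98, -1.10 and -1.35), and 1, 0, 1 and 0 fell and 0, 1, 0 and 2 rose without Dohh, where Il12rb2 fell in TH1 cells (-1.93).

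Inhibitors of STATs were counted beside the same shares of all genes. The median log2 change of the PIAS list was -0.28 to -0.63 without Odc and -0.53 to -0.85 without Dohh, and that of the SOCS list -0.31 to 0.10 and -0.22 to -0.43. The PIAS family of 4 nuclear inhibitors gave 3, 4, 2 and 3 lower genes in Odc-/- and 2, 4, 4 and 4 in Dohh-/- cells, with none higher. Pias1 fell by 0.57 to 1.17 in the 4 Odc-/- subsets, Pias3 by 0.86 to 1.34 and Pias2 by 0.38 to 1.69 in the 4 Dohh-/- subsets, and Pias3 by 0.51 to 0.76 in Odc-/- TH1, TH2 and Treg cells. Pias1 also fell in Dohh-/- TH2, TH17 and Treg cells (-0.84, -0.98 and -0.85), and Pias2 in Odc-/- TH2 and TH17 cells (-0.63 and -0.45). Of the 8 genes of the SOCS family, in which Cish and Socs3 are feedback inhibitors that STATs induce, 3, 4, 2 and 0 fell and 1, 1, 2 and 3 rose without Odc, and 3, 3, 4 and 3 fell and 0, 0, 1 and 2 rose without Dohh. Socs2 rose in Odc-/- TH1, TH2 and TH17 cells (0.88, 1.33 and 0.81) and fell in Dohh-/- TH17 and Treg cells (-1.59 and -1.46). Socs5 fell in Odc-/- TH1, TH2 and TH17 cells (-0.68, -0.70 and -0.69) and in Dohh-/- TH1 cells (-0.75). Cish fell in the 4 Dohh-/- subsets (-0.66 to -1.27) and in Odc-/- TH1 and TH2 cells (-0.27 and -0.58), and rose in Odc-/- TH17 and Treg cells (0.40 and 0.40). Socs3 fell in Dohh-/- TH1, TH2 and TH17 cells (-1.62, -1.74 and -2.32) and in Odc-/- TH1 and TH2 cells (-0.90 and -2.15). Of 4 phosphatases of STATs or JAKs, Ptpn2 fell in the 4 Odc-/- subsets (-0.20 to -0.50) and rose in Dohh-/- TH1 and Treg cells (0.50 and 0.49). Ptpn1 rose in Odc-/- TH1, TH17 and Treg cells (0.47, 0.39 and 0.28) and did not pass without Dohh (-0.19 to -0.02). That list gave 1, 2, 1 and 1 lower and 2, 1, 2 and 1 higher without Odc, and 0 lower and 1, 0, 1 and 1 higher without Dohh.

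Known targets of each STAT were counted in the same way, and many counts, such as 2 lower and 1 higher of 8 STAT6 targets in Odc-/- TH1 cells, lay near the shares of all genes. Of 13 type I interferon targets of STAT2 complexes, 8, 8, 10 and 6 rose in Dohh-/- TH1, TH2, TH17 and Treg cells and 0, 1, 0 and 1 fell, while Stat2 fell in TH1 and TH2. Rsad2 rose in all 4 (2.75 to 6.92) and was not tested without Odc. Oasl2 rose in Dohh-/- TH2, TH17 and Treg cells (5.69, 5.30 and 3.71) and in Odc-/- TH1 and TH17 cells (2.28 and 2.88). Of 12 tested without Odc, 7, 2, 4 and 1 rose and 0, 2, 1 and 6 fell, with Bst2 higher in TH1, TH17 and Treg (0.47, 0.81 and 0.62), as it was in the 4 Dohh-/- subsets (0.83 to 1.72). Of 11 STAT3 targets, 6, 9, 8 and 2 fell and 1, 1, 0 and 1 rose without Odc, and 4, 5, 7 and 4 fell and 3, 3, 2 and 5 rose without Dohh. Rora fell in the 4 Odc-/- subsets (-1.20 to -1.50) and in Dohh-/- TH17 and Treg cells (-0.96 and -1.96). Maf fell in Odc-/- TH1, TH2 and TH17 cells (-1.41, -2.06 and -1.11) and in Dohh-/- TH1, TH17 and Treg cells (-2.77, -2.96 and -1.63). Il17a, the TH17 cytokine, rose in the 4 Dohh-/- subsets (2.90 to 7.76) and in Odc-/- Treg cells (2.99), and fell in Odc-/- TH2 and TH17 cells (-2.04 and -1.67). Of 9 STAT4 targets, 2, 4, 5 and 6 rose and 2, 4, 3 and 0 fell without Odc, and 5, 7, 6 and 7 rose and 1, 0, 0 and 0 fell without Dohh. Ifng rose in all 8 comparisons (1.15 to 3.96 without Odc, 3.73 to 7.99 without Dohh), and Tbx21 in Odc-/- TH2, TH17 and Treg (2.00, 2.18 and 1.95) and in all Dohh-/- subsets (2.08 to 4.61).

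The next counts stand beside 22.2% to 29.3% of all genes lower and 25.6% to 32.9% higher in the Odc-/- subsets. In the Dohh-/- subsets 21.5% to 25% were lower and 23.8% to 28.4% higher. Many counts lay near those shares, such as 3 lower and 3 higher of 8 STAT5 targets in Odc-/- Treg cells. Nothing is read from such counts. Of 8 STAT5 targets, 4, 4, 2 and 3 fell and 2, 2, 5 and 3 rose without Odc, and 3, 1, 5 and 4 fell and 1, 2, 1 and 3 rose without Dohh. Gzmb, a granzyme, rose in all 8 comparisons (1.52 to 4.76 without Odc, 3.55 to 7.96 without Dohh). Pim1 fell in the 4 Odc-/- subsets (-0.45 to -1.32) and in Dohh-/- TH17 and Treg cells (-0.58 and -0.57). Foxp3, the Treg factor, fell in Dohh-/- TH1, TH17 and Treg cells (-2.74, -2.14 and -2.44) and rose in Odc-/- TH17 cells (2.62). Of 8 STAT6 targets, 2, 5, 1 and 2 fell and 1, 0, 3 and 5 rose without Odc, and 4, 3, 2 and 3 fell and 1, 2, 2 and 4 rose without Dohh. Il13 rose in the 4 Dohh-/- subsets (1.47 to 3.71) and in Odc-/- TH17 and Treg cells (1.09 and 1.65). The chemokine receptor Ccr8 fell in Dohh-/- TH1, TH2 and Treg cells (-3.03, -0.91 and -2.96) and in Odc-/- TH2 cells (-1.37), and rose in Odc-/- TH17 and Treg cells (1.40 and 0.83). Of 15 cytokines that signal through STATs, 7, 5, 8 and 10 rose and 1, 3, 2 and 1 fell without Odc, and 6, 8, 5 and 10 rose and 3, 1, 3 and 0 fell without Dohh. Il6 rose in all 8 comparisons (1.82 to 4.00 without Odc, 3.71 to 7.44 without Dohh). Il9 rose in the 4 Odc-/- subsets (2.98 to 5.94) and did not pass without Dohh (-0.38 to 4.12). Markers of other cells moved with these targets and cytokines. All 5 basophil and mast cell markers rose in all 8 comparisons. Of 6 CD8 T and NK cell markers 4, 3, 5 and 5 rose without Odc, and 3, 3, 4 and 4 of the 5 tested without Dohh, and 1 fell, Cd8b1, in Odc-/- TH2 (-0.99) and in Dohh-/- TH1 and TH2 cells (-1.09 and -1.10). Of 5 myeloid markers 1, 0, 4 and 3 rose without Odc, and 2, 3, 4 and 4 of the 4 tested without Dohh, and 1 fell, Cd68, in Odc-/- TH1 and TH2 cells (-1.33 and -1.64). B cell markers rose in 5, 5, 1 and 5 of 5 without Odc and in 1, 0, 1 and 1 of the 4 tested without Dohh. The part of these markers was not tested.

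Over the 8 group means of an experiment (log2 CPM), Pearson's r between Stat3, Stat5b and Stat6 was 0.88 to 0.95 in the Odc and 0.83 to 0.91 in the Dohh experiment, as a description over points that share genotype and controls. In the Dohh experiment Stat5b was as near to Stat5a (0.83) as to Stat3, and r to Stat4 was 0.80, against 0.46 and 0.33 in the Odc experiment. For Stat2, r to the other 5 ran from -0.04 (Stat5a) to 0.44 (Stat6) in the Odc and from 0.11 (Stat3) to 0.69 (Stat5a) in the Dohh experiment. Of 8721 genes, those whose means were most like a STAT gene in both experiments were Hdac5 (r = 0.97 and 0.99), Ccdc186 (0.96 and 0.97) and Ccni (0.96 and 0.98) for Stat5b, Maf1 (0.94 and 0.96), Pde6d (0.95 and 0.94) and Klf13 (0.97 and 0.94) for Stat3, and Kif21b (0.96 and 0.95), Oaz2 (0.95 and 0.94) and Map3k4 (0.94 and 0.96) for Stat6. For Stat5a they were Myo9b (0.89 and 0.93), Nit2 (0.93 and 0.88) and Kank3 (0.88 and 0.93), for Stat4 Ints9 (0.88 and 0.96), Ccar2 (0.92 and 0.87) and Kdm2b (0.85 and 0.85), and for Stat2 Sytl1 (0.87 and 0.85), Atp11b (0.85 and 0.85) and Glt8d1 (0.82 and 0.84).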

How the data were processed

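Libraries were made with a TruSeq stranded mRNA kit, and STAR and featureCounts were used by the authors for mapping and counting. deepTools, DESeq2 and the build mm10 are also named in the submitters' processing notes. Versions, the annotation release and the strand setting are not given in the sources used here, so reads of opposite-strand overlaps may have been shared. The 2 deposited tables hold unnormalized integer counts, 1 column for each library. All 55 columns were used. One Odc-/- TH2 library (replicate 1) was not analysed here, and one further family member and one gene of the lists are not reported here. Of 47937 identifiers 47224 matched GENCODE M21.

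Each table was fitted with edgeR 4.0.16 in R 4.3.3 (filterByExpr, TMM scaling, robust quasi-likelihood fit, 8 group means, 13839 and 13897 genes tested), with Benjamini-Hochberg adjustment over all genes, and changed means an adjusted p below 0.05. Both tables were fitted together for differences between the deletions (12924 genes). CPM are TMM-scaled. Standard errors and 95% intervals are on the log2 scale. At these depths a count of 0 allows up to 3 counts, or 0.226 to 0.499 CPM. These limits and intervals cover counting error or library spread only. Figures were drawn with Python 3.11.15 and matplotlib 3.10.9.

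From each list up to 2 genes per table are named, those with the largest mean change among genes changed in the same direction in at least 3 of 4 subsets. Most alike genes are the 3 with the highest lower correlation of both tables, at a mean of at least 10 CPM. Target and pathway lists rest on general knowledge. Members and lists were chosen with earlier results of these data known. Same-numbered WT libraries of the Odc table deviated together across subsets (all 24 pairs above 0.1, r from 0.21 to 0.58). The number was therefore tried as a block across subsets, in both tables. Pairs above 0.1 also numbered 20 of 21 for Odc-/-, 15 of 18 for WT of the Dohh table and 13 of 18 for Dohh-/-. The WT subset and interaction tests of both experiments are printed without such a block, except where a block is named. Over 8 alternatives, that block among them, no Dohh call of the F test over WT subsets or of the interaction test was lost. Stat6 in the former and Stat3 in the latter passed in 2 of the 8. Alternatives were relative-log-expression (RLE) scaling, total-count scaling, DESeq2 1.42.0, other filters on low counts, only the compared groups, the replicate number as a block within and across subsets, stricter thresholds, and each library left out in turn. Total-count scaling and leaving out the 2 libraries per table least like their groups (Odc-/- TH1 replicate 1 and WT Treg replicate 4, and Dohh-/- TH17 and TH1 replicates 3) were chosen after seeing the data.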

Additional observations from a re-analysis of the deposited data

Results flagged for a closer look

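Of 42 groups of 4 libraries, 3 held a library whose gap to the nearest other, divided by the group's whole range in CPM, was past Dixon's critical value, where chance flags about 1 in 20 groups. The measure is relative to the range, so a small gap can pass and a larger one miss, as for Stat4 in WT Treg replicate 4 of the Odc experiment (15.03 CPM, the others 44.5 to 52.8 CPM) and WT TH17 replicate 4 (30.6 CPM, the others 62.2 to 69.3 CPM). Stat2 in WT TH2 replicate 4 of the Odc experiment was low at 92.3 CPM, Stat3 in Odc-/- TH1 replicate 1 high at 518 CPM, and Stat5a in WT TH17 replicate 4 low at 299 CPM.

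The effect of a deletion differed between subsets by an interaction test for Stat4 (edgeR adjusted p = 1.1e-05) and Stat5a (0.00129) without Odc and for Stat2 (0.00321) and Stat5a (0.00207) without Dohh. The Dohh and Odc effects differed for Stat5a in TH1 (adjusted p = 0.00171), TH2 (5.74e-08), TH17 (0.0489) and Treg (2.43e-09), for Stat5b in TH17 (0.00897) and Treg (0.0309), and for Stat2 (0.000111) and Stat3 (0.0479) in TH1 cells. Of all genes, 34.8% passed the interaction test without Odc and 17.9% without Dohh. Differences between the deletions passed for 21.9%, 18.4%, 24.5% and 29.9% of all genes in TH1, TH2, TH17 and Treg. Nothing is read about the family from how many STAT genes passed.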

How the results depend on the processing

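With the rule that also asks for a 2-fold change, 4 of 24 comparisons without Odc and 11 of 24 without Dohh passed, in place of 20 and 18. When single libraries were left out, the calls numbered 19 to 21 without Odc and 16 to 21 without Dohh, the genes differing among WT subsets 3 to 5 in the Odc and 4 to 5 in the Dohh experiment, those with an effect differing between subsets 2 to 3 in each, and the differences between the deletions 6 to 8. Without the 2 libraries least like their groups 20 and 21 comparisons passed. With no filter on low counts 5 differences between the deletions passed in place of 8, at more genes tested. With the replicate block, whose numbers did not pair WT with deleted libraries (r of -0.09 to 0.2 and -0.03 to 0.14), 21 and 18 comparisons passed and 9 differences between the deletions. The replicate number as a block across subsets gave 5 genes that differ among WT subsets of the Odc table, and an Odc effect on Stat2 that differed between subsets (adjusted p = 0.0217). No value that turned direction had passed: Stat4 in Odc-/- TH1 cells was -0.006 with RLE scaling and with DESeq2, -0.008 with no filter and -0.038 to 0.091 with libraries left out, Stat2 in TH17 -0.139 to 0.005 without Odc and -0.028 to 0.107 without Dohh, and Stat3 in Dohh-/- TH1 -0.336 to 0.118. Differences between the deletions that turned were Stat6 in TH2 (0.001 with no filter, 0.049 at a mean count of at least 50, -0.081 to 0.061) and TH1 (-0.085 to 0.402), Stat3 in Treg (0.011 with no filter, -0.067 to 0.124) and TH17 (-0.421 to 0.036), Stat5b in TH1 (-0.285 to 0.024) and Stat4 in TH17 (-0.084 to 0.766) and Treg (-0.708 to 0.084). The cause was not tested. Stat4 held 8 to 613 counts per library.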
